A study of Homo sapiens with 9 samples.

Results

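The cyclic AMP signalling enzyme genes, with their anchoring and transcription factor partners, were taken by symbol: every ADCY gene with a number, every PDE1 to PDE11 gene with one letter from A to D, the 6 genes of protein kinase A (PKA) subunits, every A-kinase anchoring protein (AKAP) gene with a number and nothing after it, and CREB1 and CREM. The symbols matched 53 of the 61487 gene identifiers in the count tables, 10 adenylate cyclases, 22 phosphodiesterases, 6 PKA subunits, 13 AKAPs and the 2 transcription factors. The rule takes cyclic GMP phosphodiesterases along with those that act on cyclic AMP. Of the 53 genes, 45 passed edgeR's filter on low counts and were tested. The 8 that did not pass were ADCY2, ADCY4, PDE1B, PDE1C, PDE6A, AKAP3, AKAP4 and AKAP14.

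Cyclic AMP is made from ATP by adenylate cyclases, carried to its effectors and broken down by cyclic nucleotide phosphodiesterases. Its main effector is PKA, a holoenzyme of regulatory and catalytic subunits that releases active catalytic subunits when cyclic AMP binds the regulatory ones. AKAPs hold PKA beside its substrates at membranes, mitochondria, centrosomes and the nucleus, and CREB1 and CREM are transcription factors that PKA phosphorylates and that bind the cyclic AMP response element. In neurons this pathway couples transmitter receptors and calcium entry to excitability, neurite growth and transcription.

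RNA was sequenced from SH-SY5Y cells, an established human neuroblastoma cell line that resembles immature sympathetic neurons, after 72 h in MEM/F12 with 15% FBS. One group received vehicle (0 µM), and the others 10 µM or 20 µM citrinin (CTN), a mycotoxin of Penicillium, Aspergillus and Monascus moulds. Each group held 3 libraries numbered 1 to 3, 9 in all, from a single cell line. Nothing in the labels tells if the numbers stand for independent cultures, and the p-values then cover only the spread between these libraries, which may be technical. The comparisons ask how transcript levels in a neuron-like line differ with citrinin dose.

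Libraries held 15678443 to 19604367 reads assigned to genes. Levels are given as CPM, read counts scaled to library size with TMM factors, and 3 reads correspond to 0.153 to 0.191 CPM. Levels of different genes are compared only per kilobase of merged exon (CPM per kb). The line's identity was checked against 16 markers of sympathetic neuroblastoma, of which 15 were tested, with PHOX2A, HAND2 and GATA2 averaging 347, 1001 and 429 CPM over the 9 libraries. TH, the rate-limiting enzyme of catecholamine synthesis, had 3 reads in all 9 libraries together. Of 6 glial and Schwann cell markers, CDH19 had no read and SOX10 averaged 0.280 CPM.

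In the 18 pairs of libraries with different replicate numbers, deviations from the group means correlated with r of -0.545 to 0.139. Deviations cancel out within a group, so these low values in part follow from the pairs with the same number and are no separate support. The replicate number paired the libraries: the deviations correlated with r of 0.457 to 0.685 in all 9 pairs with the same number. Differences are therefore reported from edgeR's quasi-likelihood test with the replicate number as a block, beside the fit without it. A gene is said to have risen or fallen where its Benjamini-Hochberg adjusted p over all 17806 genes tested was below 0.05 with the block. Without the block no gene of the 17806 passed at any dose (0.0% in each of the 3 comparisons).

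At 20 µM citrinin against vehicle, 2 of the 45 genes fell and none rose. The 2 were ADCY1, a calcium- and calmodulin-stimulated adenylate cyclase of neurons, at 0.707 of its vehicle level, and AKAP1, which anchors PKA at the outer mitochondrial membrane, at 0.837 of its vehicle level. Over all genes 1.36% were lower and 0.848% higher by the same rule, and since 1 gene of 45 is already a larger share than these, the 2 calls are read as single genes and not as a change of the whole group. The remaining 43 genes were not called, and DESeq2 with the block called the same 2 genes. With the block 9 of the 45 had an unadjusted p below 0.05 in edgeR. The share of all genes at that level with the block was not taken. This count, and the later ones like it, therefore cannot be read as an excess among these genes. Without the block 2 members had an unadjusted p below 0.05, against 2.17% of all genes. The median log2 fold change of the 45 genes was -0.05, against -0.0016 for all genes, with 29 lower and 16 higher.

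At 10 µM against the same vehicle libraries, no member was called by edgeR with the block, where 1 had an unadjusted p below 0.05, and none by DESeq2. Over all genes the 10 µM libraries gave 0.0337% higher and 0.0% lower with the block. Without it 0.646% of all genes and none of the 45 had an unadjusted p below 0.05. At 20 µM against 10 µM, 1 member fell, ADCY1, where 0.264% of all genes were lower and 0.18% higher. Without the block 1 member (ADCY1) had an unadjusted p below 0.05 there, against 1.18% of all genes. The comparisons share libraries and are not independent of each other. The median log2 fold changes of the 45 genes were -0.04 at 10 µM against vehicle and -0.02 at 20 µM against 10 µM.

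The plot of levels by gene sets out all 45 tested genes in the 9 libraries.

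**Figure D1:**
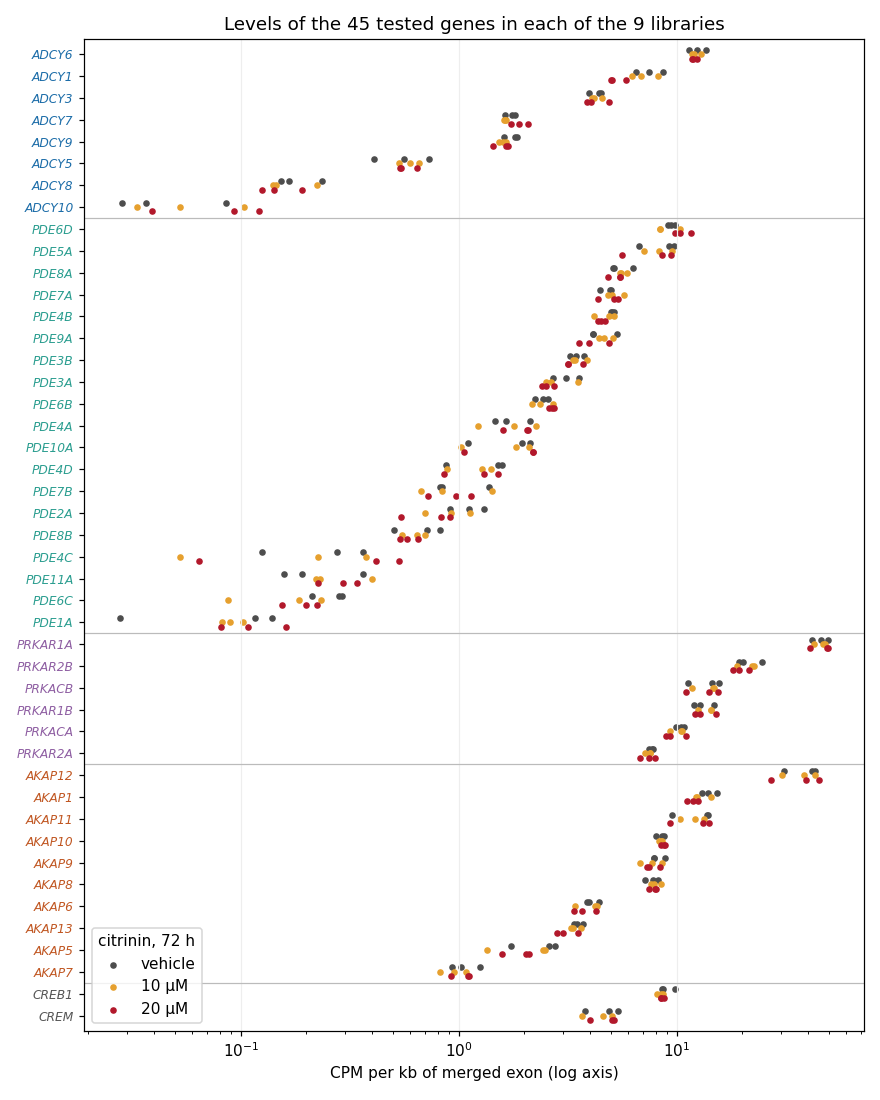
Level of each tested gene in each library, in CPM per kb of merged exon on a log axis, with genes in rows ordered within adenylate cyclases, phosphodiesterases, PKA subunits, AKAPs, and CREB1 with CREM, and points coloured by dose (3 libraries each). PRKAR1A and AKAP12 are the highest of the 45 and ADCY10 the lowest, and for most genes the 3 colours overlap.

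Promoter sequence is shown for the 2 genes that fell and for a start inside the CREM gene, since CREM is known for an internal promoter with cyclic AMP response elements that drives an inducible repressor. The windows run from 250 bases before to 50 bases after a RefSeq start on GRCh38.p14, and all 3 lie on the plus strand. ADCY1 is at chr7:45573890-45574189, AKAP1 at chr17:57084996-57085295 and CREM at chr10:35195652-35195951. They are read 5′ to 3′, in lower case, with capitals marking the response element TGACGTCA or its core TGACG, which reads CGTCA on the opposite strand.
ADCY1: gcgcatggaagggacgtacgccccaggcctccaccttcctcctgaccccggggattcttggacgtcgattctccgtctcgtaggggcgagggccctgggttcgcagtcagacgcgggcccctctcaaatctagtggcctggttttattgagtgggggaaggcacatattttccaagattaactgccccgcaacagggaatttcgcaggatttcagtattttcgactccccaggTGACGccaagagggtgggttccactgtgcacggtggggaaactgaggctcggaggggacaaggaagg
AKAP1: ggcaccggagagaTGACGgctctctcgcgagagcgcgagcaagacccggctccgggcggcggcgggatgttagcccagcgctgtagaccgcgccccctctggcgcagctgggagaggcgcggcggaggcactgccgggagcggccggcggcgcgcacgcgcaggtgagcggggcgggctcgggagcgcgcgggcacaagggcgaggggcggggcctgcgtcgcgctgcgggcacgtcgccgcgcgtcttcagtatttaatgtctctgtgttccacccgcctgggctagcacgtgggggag
CREM: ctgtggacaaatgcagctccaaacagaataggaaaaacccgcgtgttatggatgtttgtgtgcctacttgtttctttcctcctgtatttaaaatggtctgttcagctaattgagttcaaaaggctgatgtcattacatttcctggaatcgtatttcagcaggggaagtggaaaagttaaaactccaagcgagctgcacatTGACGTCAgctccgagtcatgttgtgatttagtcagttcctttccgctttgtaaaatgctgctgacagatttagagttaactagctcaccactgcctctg
The ADCY1 window held a single core element, 17 bases before the start, and no full one. The AKAP1 window held a single core element, 237 bases before the start, and no full one. ADCY1 has 2 starts and AKAP1 has 3, and for both the start with the lowest coordinate was shown. The distances hold for that start only. The CREM window was picked among 7 starts for holding the full element, so its presence there is no result. It lies 50 bases before the start. These matches describe letters in the windows and not binding.

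Promoter windows were matched for 46 of the 53 genes by symbol, 121 windows in all since many genes have several starts. ADCY6, ADCY8, ADCY9, PDE3B, PDE7A, PDE9A and AKAP3 were not matched. The full element stood in 6 of the 121 windows (4.96%), which belong to 4 genes, CREM, PDE4A, PDE7B and PRKAR1A (8.70% of the 46). For CREM and for PRKAR1A, overlapping windows held the same site, which is counted in each window. Among all 35116 windows of the same length the full element stood in 649 (1.85%), and 2.25% of the 27305 genes had it. These genes had fewer windows each than the 46, so the shares of genes are not on an equal footing. The core element TGACG on either strand, which the full one contains, stood in 25.6% of the members' windows and 24.6% of all windows. None of the 4 genes with a full element was called at any dose, by edgeR or DESeq2.

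Among the adenylate cyclases, ADCY6, which calcium inhibits, had the highest level per length, 12.2 CPM per kb averaged over the 9 libraries. It was followed by ADCY1 at 6.65 CPM per kb, by ADCY3, a calmodulin-regulated cyclase best known from olfactory neurons, at 4.28, by ADCY7 at 1.75 and by ADCY9 at 1.65 CPM per kb. ADCY7 and ADCY9 overlapped in their library values and cannot be ordered. ADCY5, a relative of ADCY6 also inhibited by calcium, had 0.579 CPM per kb, the calcium-stimulated ADCY8 0.169 and the soluble, bicarbonate-stimulated ADCY10 0.0660. ADCY2 had no read in any library, and ADCY4 had 51 reads over the 9 libraries. Exons of other genes overlap 41.6% of the ADCY7 exon length (BRD7) and 26.0% of that of ADCY3 (CENPO), and reads in such stretches are counted for neither gene, so these 2 levels per length are likely to be low.

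ADCY1 (ENSG00000164742, chr7:45574140-45723116, plus strand) fell at 20 µM. It had 81.3, 69.9 and 68.8 CPM in 20 µM replicates 1, 2 and 3, against 119.5, 102.8 and 90.0 CPM in the vehicle libraries. All 3 of the 20 µM libraries lay below all 3 vehicle libraries, and in both groups replicate 1 was the highest. The 20 µM libraries averaged 73.3 ± 6.88 CPM and the vehicle libraries 104.1 ± 14.8 CPM (SD, n = 3 each). The log2 fold change was -0.50 ± 0.05 (SE), with an adjusted p of 1.4e-06 in edgeR's quasi-likelihood test with the block. Without the block edgeR gave -0.51 with an unadjusted p of 0.0033 and an adjusted p of 0.999997.

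At 10 µM ADCY1 had 113.3, 95.1 and 86.5 CPM, each below the vehicle library of the same number, with the groups overlapping. Its log2 fold change against vehicle was -0.08 ± 0.05, which did not pass (adjusted p = 0.9997 in edgeR with the block). Against 10 µM the 20 µM libraries were lower by a log2 fold change of -0.42 ± 0.05, or 0.749 of the 10 µM level, with an adjusted p of 1.3e-04 in edgeR with the block. The groups did not overlap, and all 3 pairs of the same number were lower at 20 µM. That call was lost when the libraries of replicate 3 were left out at all doses (adjusted p = 0.0985 in edgeR with the block). The call against vehicle held in all 12 settings that left out libraries, with log2 fold changes of -0.55 to -0.47 and adjusted p in edgeR of at most 0.0025.

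As a share of the summed level of the family, ADCY1 made up 27.8%, 25.9% and 25.0% of the summed CPM per kb of the 10 cyclases with vehicle, 28.8%, 24.4% and 23.6% at 10 µM, and 22.0%, 19.6% and 19.7% at 20 µM. All 3 of the shares at 20 µM lay below those of the other 6 libraries. ADCY6 held 44.0%, 48.2% and 46.9% of the sum at 20 µM and 43.7%, 43.2% and 43.7% with vehicle. These are shares of transcript levels and not of enzyme activity.

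ADCY6 itself (ENSG00000174233, chr12:48766194-48789037, minus strand) had 114.2, 104.5 and 95.6 CPM with vehicle, 99.3, 108.8 and 101.0 CPM at 10 µM and 99.0, 104.5 and 100.02 CPM at 20 µM. The groups overlapped, and the log2 fold change of -0.05 ± 0.06 did not pass (adjusted p = 0.785 in edgeR with the block). No other cyclase was called in any comparison. ADCY7, a cyclase that G protein beta-gamma subunits stimulate, did not overlap between 20 µM (14.9, 16.2 and 18.0 CPM) and 10 µM (14.0, 14.2 and 13.9 CPM). Its log2 fold change there was 0.22 ± 0.10 with an adjusted p of 0.549 in edgeR with the block, and it is named here after its values were seen. Of all genes 4.87% were without overlap between these doses. For ADCY8 and ADCY10, with 158 and 63 reads over 9 libraries, standard errors of 0.36 and 0.62 on the log2 scale mean that a 1.5-fold change was not detectable at this depth.

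The fall of ADCY1 and AKAP1 stood beside changes in markers of the neuronal state of these cells. Of the 15 tested sympathetic markers, 12 fell at 20 µM against vehicle with the block (8 by DESeq2 with the block), among them the receptor tyrosine kinase RET at a log2 fold change of -0.58 ± 0.06. Over all genes 1.36% were lower and 0.848% higher in that comparison. None of the 15 was called at 10 µM against vehicle. At 20 µM against 10 µM 5 of them fell, where 0.264% of all genes were lower. The 16 markers summed to 2744 to 3830 CPM in the 20 µM libraries, against 3377 to 4234 CPM in the vehicle libraries. Of 10 markers of the mesenchymal state of neuroblastoma, VIM, CD44 and YAP1 rose and none fell past the threshold in edgeR with the block, and the median log2 fold change of the list was 0.02. Of these markers only CD44 was called at 20 µM against 10 µM, where it rose, and none at 10 µM against vehicle. TWIST1 and PRRX1, transcription factors of that state, were lower at 20 µM in all 3 pairs without passing, with log2 fold changes of -0.24 ± 0.06 (adjusted p = 0.0599 in edgeR with the block) and -0.17 ± 0.06 (adjusted p = 0.165). The list summed to 5586 to 7533 CPM at 20 µM against 5098 to 7142 CPM with vehicle, and FN1 and COL3A1, neither of them called, made up most of that sum, with means of 3391 and 1594 CPM at 20 µM against 3295 and 1567 CPM with vehicle. None of the 4 tested glial markers was called by edgeR with the block (none at an unadjusted p below 0.05 and none by DESeq2), and that list summed to 8.92 to 9.29 CPM at 20 µM against 6.31 to 9.47 CPM with vehicle. In bulk RNA a smaller share of cells with a transcript and less of it per cell cannot be told apart, and the part of the marker changes in the fall of ADCY1 and AKAP1 was not tested.

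The phosphodiesterases had 19 of 22 members tested, and none was called at any dose. At 20 µM against vehicle 4 of the 19 had an unadjusted p below 0.05 in edgeR with the block, none did without it, and DESeq2 called none. Their log2 fold changes ran from -0.55 to 0.34 with a median of -0.06, 8 higher and 11 lower. At 10 µM against vehicle 7 were higher and 12 lower, and at 20 µM against 10 µM 9 were higher and 10 lower. Standard errors ran from 0.06 to 0.49, so the smaller changes of the low-level members would not have been seen.

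The highest phosphodiesterase gene per length was PDE6D, at 9.70 CPM per kb. Its protein is named for a photoreceptor phosphodiesterase but acts mainly as a carrier of prenylated proteins. PDE6D had 26.0, 28.0 and 26.9 CPM with vehicle, 23.8, 29.5 and 24.0 CPM at 10 µM and 29.5, 33.2 and 27.9 CPM at 20 µM. Each 20 µM library was above the vehicle library of its number and the groups overlapped, with a log2 fold change of 0.16 ± 0.08 that did not pass (adjusted p = 0.386 in edgeR with the block).

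Next per length came PDE5A, which hydrolyses cyclic GMP, at 8.24 CPM per kb, and the cyclic AMP-specific PDE8A, PDE7A and PDE4B at 5.48, 4.99 and 4.78 CPM per kb. The cyclic GMP-specific PDE9A had 4.46 and the cyclic GMP-inhibited PDE3B and PDE3A 3.46 and 2.86 CPM per kb. The library values of PDE6D and PDE5A overlapped, as did those of PDE8A, PDE7A, PDE4B and PDE9A. PDE5A also overlapped with PDE8A, and PDE3B with both PDE9A and PDE3A. The order of neighbours in this series is therefore not resolved. The calcium- and calmodulin-stimulated PDE1 family had almost no reads, with 99 reads of PDE1A, 3 of PDE1C and none of PDE1B over the 9 libraries. Of the photoreceptor subunits, PDE6B had 2.50 CPM per kb and PDE6C 0.208. PDE4C, whose exons are overlapped by other annotated genes over 70.8% of their length, had 276 reads, and PDE8B is overlapped over 41.6% (WDR41), so their levels per length are likely to be low.

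The phosphodiesterase nearest to the threshold was PDE2A, which cyclic GMP stimulates to hydrolyse cyclic AMP, and it is named after its values were seen. It had 3.92, 6.58 and 5.93 CPM at 20 µM, against 6.54, 9.36 and 8.04 CPM with vehicle. Each 20 µM library was below the vehicle library of its number, and the groups overlapped by a small margin. The log2 fold change of -0.55 ± 0.15 was the most negative of the 45, and its adjusted p was 0.0541 in edgeR with the block. It passed in edgeR with the block when no filter on low counts was applied (adjusted p = 0.0349) and when 10 µM replicate 1 or 10 µM replicate 2 was left out. Over the other leave-outs its adjusted p reached 0.396. The antisense genes PDE2A-AS1 and PDE2A-AS2 overlap 3.94% of the PDE2A exons, where reads are counted for neither gene since the libraries do not mark strand.

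PDE4B, the cyclic AMP-specific phosphodiesterase that is induced by cyclic AMP in many cells, and PDE6B did not overlap between 20 µM and vehicle, though neither passed. They are among 4 of the 45 tested members without overlap, ADCY1, AKAP1, PDE4B and PDE6B, where 6.75% of all genes had none. That count is near the share of all genes, so a lack of overlap alone does not set these members apart. PDE4B had 38.7, 40.7 and 37.6 CPM at 20 µM, against 43.9, 44.7 and 43.2 CPM with vehicle, a log2 fold change of -0.17 ± 0.07 (adjusted p = 0.300 in edgeR with the block). PDE6B had 13.9, 13.3 and 13.7 CPM at 20 µM against 11.3, 12.4 and 13.1 CPM with vehicle. Between 10 µM and vehicle none of the 45 was without overlap, against 4.01% of all genes. Between 20 µM and 10 µM ADCY1, ADCY7 and PDE8A were without overlap, against 4.87% of all genes.

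The plot of values by dose shows ADCY1, AKAP1 and PDE2A beside 3 genes in which the replicate number stands out.

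**Figure D2:**
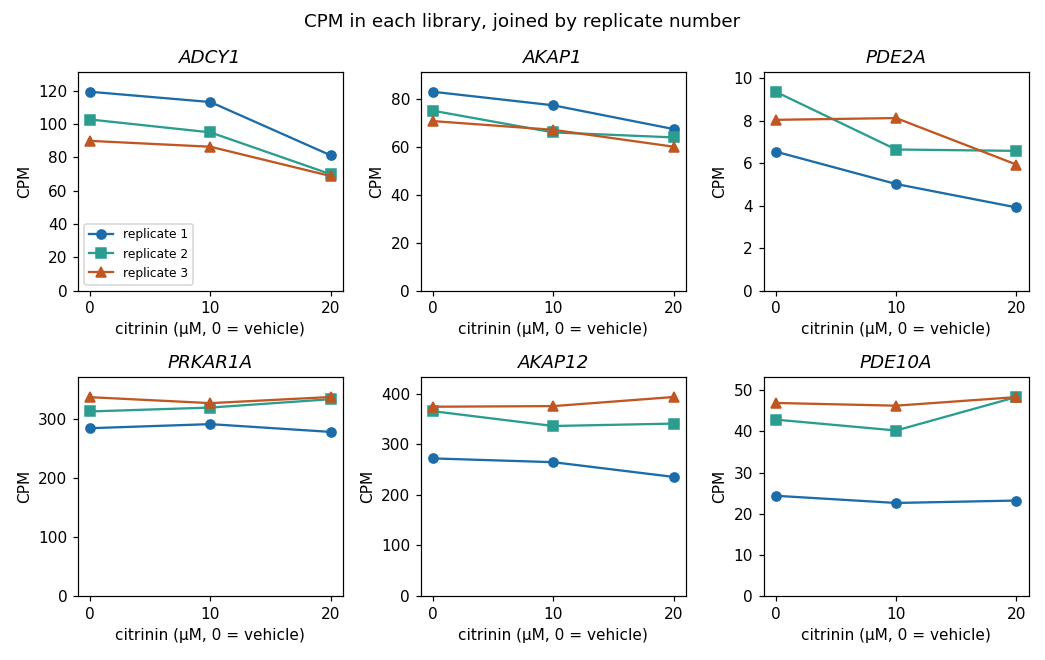
CPM of ADCY1, AKAP1, PDE2A, PRKAR1A, AKAP12 and PDE10A in each of the 9 libraries against citrinin dose (µM, 0 = vehicle), with lines joining libraries of the same replicate number. ADCY1 and AKAP1 are lower at 20 µM than with vehicle in all 3 replicates, while PDE10A is 22.6 to 24.4 CPM in replicate 1 and 40.2 to 48.4 CPM in replicates 2 and 3 at every dose.

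All 6 PKA subunit genes were tested and none was called at any dose, by edgeR with or without the block or by DESeq2. With the block 1 of the 6 had an unadjusted p below 0.05 at 20 µM against vehicle, none at 10 µM against vehicle and 1 at 20 µM against 10 µM. The type I regulatory subunit gene PRKAR1A was the highest per length of all 53 genes, at 46.0 CPM per kb over the 9 libraries. The type II regulatory subunit PRKAR2B, the neuronal one of its class, followed at 20.7 CPM per kb, then the catalytic subunit PRKACB at 13.7, the neuronal regulatory subunit PRKAR1B at 13.4, the catalytic subunit PRKACA at 10.1 and PRKAR2A at 7.49 CPM per kb. PRKACB and PRKAR1B overlapped in their library values and cannot be ordered. In 20 µM replicate 1 PRKACB and PRKACA were level, each at 10.7% of the summed PKA subunit level per length. PRKAR1A made up 39.7%, 42.5% and 44.2% of the summed PKA subunit level per length at 20 µM, against 39.7%, 39.3% and 43.2% with vehicle.

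PRKAR1A had 284.5, 312.9 and 337.2 CPM with vehicle, 291.4, 319.5 and 327.1 CPM at 10 µM and 278.2, 333.8 and 337.5 CPM at 20 µM. Replicate 1 was lowest at every dose and the groups overlapped, with a log2 fold change at 20 µM against vehicle of 0.02 ± 0.05. PRKAR1B had 66.9, 53.9 and 57.6 CPM with vehicle, 64.4, 64.3 and 56.5 CPM at 10 µM and 67.8, 54.5 and 57.5 CPM at 20 µM, with a log2 fold change at 20 µM of 0.01 ± 0.07.

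PRKAR2A had 49.6, 51.7 and 51.4 CPM with vehicle, 50.1, 50.2 and 47.7 CPM at 10 µM and 45.0, 52.7 and 49.5 CPM at 20 µM. Its groups overlapped, with a log2 fold change at 20 µM of -0.05 ± 0.06. PRKAR2B had 83.1, 106.7 and 86.7 CPM with vehicle, 81.7, 97.6 and 95.4 CPM at 10 µM and 78.0, 92.7 and 83.0 CPM at 20 µM. Each of its 20 µM libraries was below the vehicle library of its number, and the log2 fold change of -0.12 ± 0.06 was the furthest from 0 among the subunits, with an adjusted p of 0.344 in edgeR with the block.

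The catalytic subunit PRKACA had 64.5, 66.2 and 60.9 CPM with vehicle, 64.2, 64.8 and 57.2 CPM at 10 µM and 67.6, 57.1 and 55.0 CPM at 20 µM. It was above vehicle in 1 pair and below it in 2, with a log2 fold change at 20 µM of -0.10 ± 0.06. PRKACB had 75.9, 105.3 and 97.4 CPM with vehicle, 79.5, 98.2 and 99.3 CPM at 10 µM and 74.0, 103.8 and 94.4 CPM at 20 µM. Replicate 1 was the lowest library at every dose, and the log2 fold change at 20 µM was -0.03 ± 0.05. A p that misses the threshold does not show that any of these 6 levels was the same at each dose.

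Of the 13 AKAP genes 10 were tested, and 1, AKAP1, was called. AKAP12, or gravin, a scaffold at the plasma membrane that also binds protein kinase C, was the highest per length at 37.6 CPM per kb, followed by AKAP1 at 13.0 and AKAP11 at 12.2 CPM per kb. AKAP10, AKAP9 and AKAP8 had 8.53, 7.88 and 7.83 CPM per kb, and AKAP6, AKAP13, AKAP5 and AKAP7 between 3.94 and 1.02. AKAP1 and AKAP11, and likewise AKAP10, AKAP9 and AKAP8, overlapped in their library values and cannot be ordered. AKAP3, AKAP4 and AKAP14, which are known from sperm and cilia, had 40, 49 and 3 reads over the 9 libraries.

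AKAP1 (ENSG00000121057, chr17:57085092-57121349, plus strand) had 67.5, 64.0 and 60.1 CPM at 20 µM, against 83.0, 75.1 and 70.8 CPM with vehicle. All 3 of the 20 µM libraries lay below all 3 vehicle libraries. The averages were 63.8 ± 3.68 CPM at 20 µM and 76.3 ± 6.21 CPM with vehicle (SD, n = 3 each). The log2 fold change was -0.26 ± 0.06, with an adjusted p of 0.0116 in edgeR's quasi-likelihood test with the block. Without the block edgeR gave an unadjusted p of 0.0206 and an adjusted p of 0.999997.

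At 10 µM AKAP1 had 77.4, 66.1 and 67.1 CPM, in each pair below vehicle and above 20 µM. Its log2 fold changes were -0.12 ± 0.06 for 10 µM against vehicle and -0.14 ± 0.06 for 20 µM against 10 µM, and neither passed (adjusted p = 0.9997 and 0.457 in edgeR with the block). The call at 20 µM against vehicle held in 6 of the 12 settings that left out libraries. It was lost when any of the 3 vehicle libraries, 20 µM replicate 3, or the whole of replicate 1 or of replicate 3 was left out, with adjusted p of up to 0.358 in edgeR with the block and log2 fold changes of -0.28 to -0.23 over all 12. DESeq2 with the block gave an adjusted p of 0.0244.

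AKAP12 had 272.4, 365.9 and 374.8 CPM with vehicle, 264.9, 336.6 and 376.0 CPM at 10 µM and 235.7, 341.4 and 394.0 CPM at 20 µM. Replicate 1 was the lowest library at every dose and the doses overlapped, with a log2 fold change at 20 µM of -0.08 ± 0.05 (adjusted p = 0.563 in edgeR with the block). Of the remaining AKAPs, 2 had an unadjusted p below 0.05 at 20 µM against vehicle with the block. They were AKAP5, the scaffold of the postsynaptic membrane, with a log2 fold change of -0.30 ± 0.11, and AKAP13, which is also an activator of the GTPase RhoA, with -0.18 ± 0.07. Their adjusted p were 0.156 and 0.214 in edgeR with the block, and both are named after their values were seen. AKAP5 was called without 20 µM replicate 1, and AKAP13 without 20 µM replicate 2 or all of replicate 2. PDE3A, with a log2 fold change of -0.28 ± 0.09 and an adjusted p of 0.102, was called without 10 µM replicate 2.

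**Figure D3:**
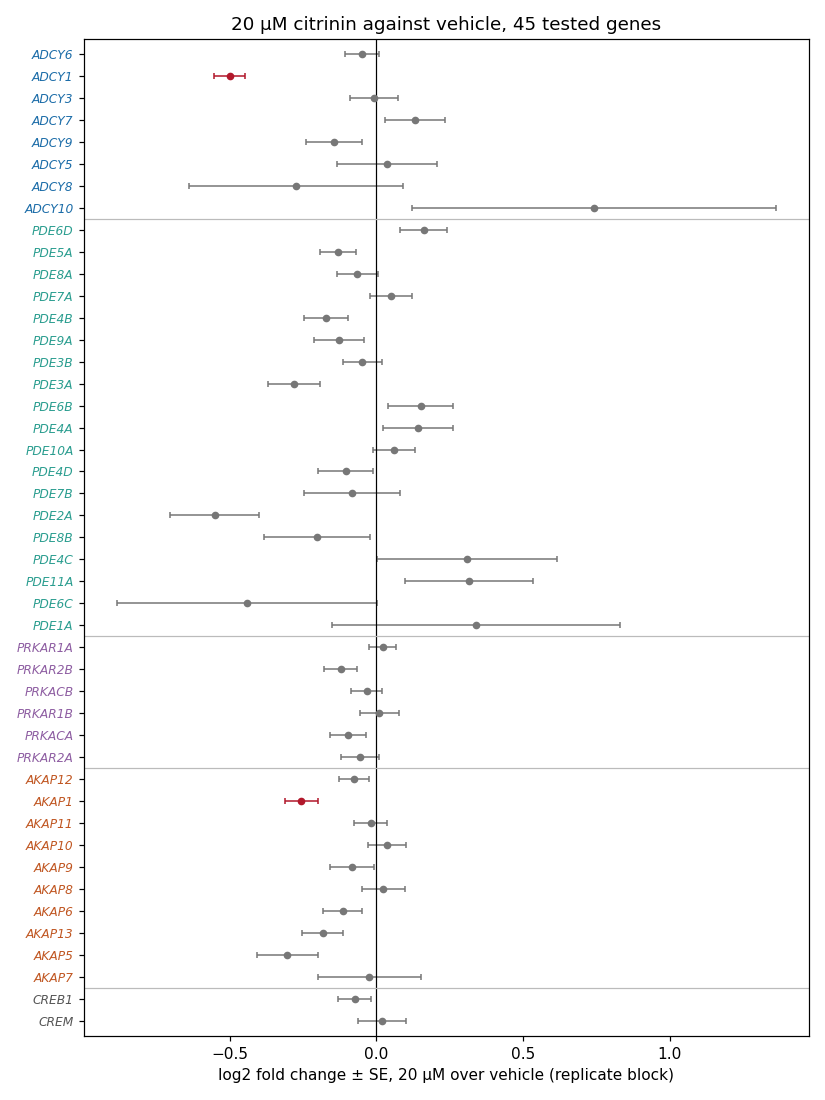
Log2 fold change of each of the 45 tested genes at 20 µM citrinin over vehicle, with its standard error (bars), from edgeR with the replicate block, in the same row order as the plot of levels. Red marks the 2 genes past an adjusted p of 0.05, ADCY1 at -0.50 and AKAP1 at -0.26. PDE2A at -0.55 has a wider bar and is not called.

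CREB1 and CREM were both tested and neither was called at any dose, with no unadjusted p below 0.05 in edgeR with the block and none by DESeq2. CREB1 had 8.65 CPM per kb and CREM 4.62. CREB1 had 83.2, 93.7 and 81.6 CPM with vehicle, 81.5, 82.6 and 77.5 CPM at 10 µM and 81.0, 80.7 and 83.6 CPM at 20 µM. Its log2 fold change at 20 µM was -0.07 ± 0.06. CREM (ENSG00000095794, chr10:35126791-35212958, plus strand) had 21.7, 27.8 and 30.7 CPM with vehicle, 21.0, 28.6 and 26.1 CPM at 10 µM and 22.8, 29.5 and 28.8 CPM at 20 µM. Its log2 fold change at 20 µM was 0.02 ± 0.08. Gene counts join the activator and repressor transcripts of CREM, including any from internal starts.

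Of 54 tested genes around these enzymes, in 5 lists, 2 fell and 1 rose at 20 µM against vehicle in edgeR with the block, which is 5.56% called, beside 1.36% lower and 0.848% higher over all genes. Of 7 tested G protein alpha subunit genes, GNAO1, an inhibitory-class subunit abundant in neurons, fell at 20 µM against vehicle by a log2 fold change of -0.26 ± 0.07 (adjusted p = 0.0308 in edgeR with the block). GNAS, which stimulates the cyclases, had 1143, 1038 and 970.4 CPM at 20 µM against 1108, 1062 and 980.2 CPM with vehicle. Of 29 Gs-coupled receptor genes 15 were tested and none was called, 4 having an unadjusted p below 0.05 in edgeR with the block and none passing in DESeq2. The beta-adrenergic receptor genes ADRB1 and ADRB3 had 1 and 0 reads over the 9 libraries.

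Among 12 other effectors, inhibitors and an exporter of cyclic AMP, 11 were tested and BVES, a Popeye-domain protein that binds cyclic AMP, fell by a log2 fold change of -0.25 ± 0.06 (adjusted p = 0.0280 in edgeR with the block). RAPGEF4, an exchange factor that cyclic AMP activates without PKA, had a log2 fold change of -0.09 ± 0.06. Of 8 tested CREB coactivators and relatives none was called, 1 having an unadjusted p below 0.05 in edgeR with the block and none passing in DESeq2. That one was CREBBP, the coactivator that binds phosphorylated CREB1, with a log2 fold change of -0.20 ± 0.06 and an adjusted p of 0.0504 in edgeR with the block. Of 20 genes listed as CREB targets 13 were tested, and DUSP1, a phosphatase of MAP kinases, rose by 0.34 ± 0.09 on the log2 scale (adjusted p = 0.0439 in edgeR with the block). The CREB target list overlaps immediate early and neuropeptide genes and is not specific to CREB. GNAO1, BVES and DUSP1 were not called by DESeq2 with the block, and no gene of these 5 lists was called by edgeR with the block at 10 µM against vehicle or at 20 µM against 10 µM, where 2 and 6 genes had an unadjusted p below 0.05. The median log2 fold changes of the 5 lists at 20 µM against vehicle, in the order given, were -0.0065, 0.03, -0.05, -0.05 and -0.02, against -0.0016 for all genes.

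For most of these genes the replicate number went with more of the variation than the dose did. Over the 9 libraries, differences between replicate numbers held a median of 62.0% of the variance of log2(CPM + 1) of the 45 genes and differences between doses 14.0%. For all 17806 genes tested the medians were 55.3% and 11.3%. The replicate share was larger than the dose share in 34 of the 45 genes and smaller in 11. It was above 80% in 12 genes, or 26.7% of the 45, against 24.0% of all genes. The dose share was above 50% in 3 genes, ADCY1 at 68.6%, ADCY7 at 59.6% and AKAP1 at 57.6%, or 6.67% of the 45 against 6.10% of all genes. Both shares include noise between libraries. These figures describe the genes beside the whole table, and with 3 libraries per number and per dose no test of the shares was made.

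**Figure D4:**
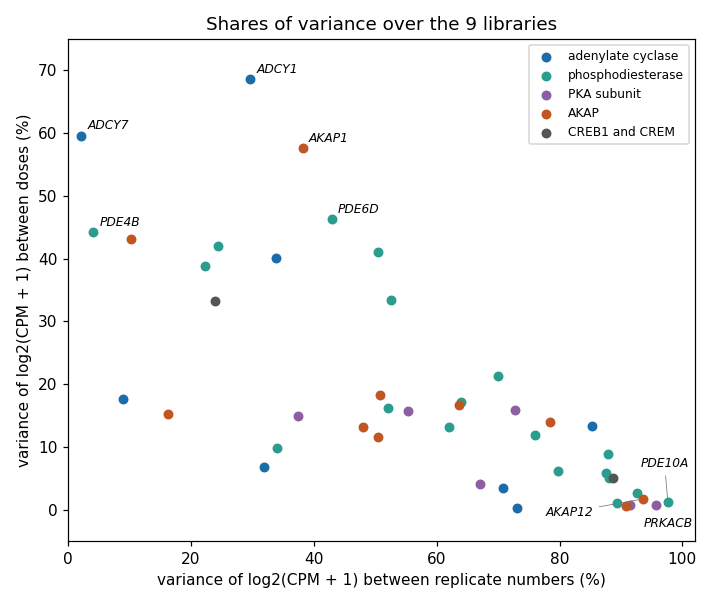
Share of the variance of log2(CPM + 1) over the 9 libraries that lies between replicate numbers (x axis, %) and between doses (y axis, %), 1 point for each of the 45 tested genes, coloured by family. ADCY1, ADCY7 and AKAP1 lie above 50% on the dose axis, and PDE10A, PRKACB and AKAP12 lie beyond 90% on the replicate axis.

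PDE10A, a dual phosphodiesterase known from striatal neurons, had the highest replicate share, 97.6%, and is named after its values were seen. It had 24.4, 42.9 and 46.9 CPM with vehicle, 22.6, 40.2 and 46.3 CPM at 10 µM and 23.2, 48.4 and 48.4 CPM at 20 µM. Replicate 1 thus had about the same level at each dose, well below replicates 2 and 3. PRKACB (95.7%), AKAP12 (93.6%), the cyclic AMP-specific PDE4D (92.6%), PRKAR1A (91.5%) and AKAP11 (90.8%) were likewise lowest in replicate 1. Replicate 1 had the lowest mean in 9 of the 12 genes above 80%, replicate 2 in 1 and replicate 3 in 2. PDE7B, at 89.3%, was highest in replicate 2 at each dose. Of the CREB target list, the neuropeptide and granin genes VGF, SCG2, NPY and VIP, singled out after their values were seen, were also low in replicate 1. They summed to 546.6 to 586.7 CPM in replicate 1, 1486 to 1513 CPM in replicate 2 and 1430 to 1556 CPM in replicate 3. The other 16 genes of that list were not low there, summing to 338.3 to 346.9 CPM in replicate 1, 303.3 to 321.2 CPM in replicate 2 and 319.1 to 339.9 CPM in replicate 3. The part of these genes in the members' values was not tested.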

How the data were processed

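Gene-level RNA-seq counts were analysed for 9 libraries of SH-SY5Y cells, grouped and numbered by the sample titles. The submitters' processing notes name FastQC, cutadapt, STAR, edgeR and the build GRCh38. Neither their versions nor the gene annotation used for counting is named there. The deposited files hold STAR's raw counts per gene for each library, and the count of both strands together was used, since reads fell on either strand in ratios of 1.007 to 1.020 and the kit therefore does not mark strand. Reads outside genes, ambiguous or mapping to several places were left out, so 76.4% to 78.0% of reads were assigned. A deposited table of normalized values was not used.

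Counts were tested with edgeR 4.0.16 in R 4.3.3 (glmQLFit with robust estimation, TMM, filterByExpr by group, Benjamini-Hochberg adjustment over 17806 genes) on all 9 libraries without covariates. The alternatives were the replicate block, DESeq2 1.42.0, RLE size factors, no filter and leaving out libraries. Same-numbered libraries deviated together in all 9 pairs (r above the limit of 0.1), with the numbers taken from the titles, so blocked values are given. Libraries within a group differed by more than sampling noise, with a chi-square over its degrees of freedom of 8.85 or more. The biological coefficient of variation was 0.195 without the block (6 residual degrees of freedom) and 0.0552 with it (4). On simulated counts for 20 µM against vehicle over 17806 genes, 50 genes each were changed 1.25-, 1.5-, 2- and 3-fold. Without the block edgeR recovered 0%, 14%, 46% and 40% of them, with 0 false calls. With the block it recovered 42%, 64%, 78% and 88%, with 15 false calls. The simulated counts were drawn from a fit on the replicate number, so the block matched them by construction. These recoveries therefore cannot tell which fit suits the real libraries better. In this single run the false calls with the block were a larger share of all calls than the adjusted p threshold of 0.05 aims at.

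Members and lists were chosen with earlier results of these data known. Members given with values in all libraries were those past the threshold in any comparison, ADCY1, the PKA subunits, CREB1 and CREM, and the cyclase, phosphodiesterase and AKAP highest per length. Applying this to the block was part of the rule. Coordinates and exon lengths are from GENCODE 29 on GRCh38, promoter sequences from RefSeq. Spread is SD over 3 libraries, and read floors cover counting error only. Standard errors of log2 fold changes are approximate. Each was worked back from edgeR's test, as the absolute log2 fold change over the square root of the F statistic.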

Additional observations from a re-analysis of the deposited data

How the results depend on the processing

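Without the replicate block no member was called in any comparison under edgeR with TMM or RLE, DESeq2, no filter or any leave-out. With the replicate block, where the numbers pair the samples, 2 members were called at 20 µM against vehicle, 2 with RLE size factors, 2 in DESeq2 and 3 with no filter on low counts (PDE2A being the third), with 0 to 4 over the leave-outs with and without the block. At 20 µM against 10 µM, 1 member was called with the block, 1 with RLE size factors, 1 in DESeq2 and 1 with no filter, with 0 to 1 over the leave-outs. At 10 µM against vehicle every setting run gave 0. The cause of the lost calls was not tested. In the simulated data, which were built with replicate effects, the fit without the block made few calls at 1.5-fold. Its counts of 0 do not show that levels stayed the same. In the same simulated data the fit with the block made 15 false calls. ADCY1 and AKAP1 kept their direction at 20 µM against vehicle in every setting run.

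Leaving out libraries turned the sign of some members in comparisons where no setting called them. The ranges below join 21 settings, fitted with and without the block. In the 12 settings with the block some of these genes kept their sign and others did not. At 20 µM against vehicle AKAP12 then ran from -0.15 to -0.013 and ADCY6 from -0.10 to 0.036. ADCY1 at 10 µM against vehicle then ran from -0.12 to -0.062. The lowest and highest log2 fold changes at 20 µM against vehicle were -0.11 and 0.0363 for ADCY6, -0.23 and 0.12 for AKAP12, -0.11 and 0.13 for CREM, -0.16 and 0.0917 for PRKACB, -0.0398 and 0.11 for PRKAR1A, -0.0883 and 0.10 for PRKAR1B, -0.11 and 0.00245 for PRKAR2A. At 10 µM against vehicle they were -0.20 and 0.0275 for ADCY1, -0.086 and 0.0684 for ADCY6, -0.19 and 0.077 for AKAP12, -0.21 and 0.0339 for CREM, -0.0942 and 0.0127 for PRKACA, -0.13 and 0.0912 for PRKACB, -0.0562 and 0.0659 for PRKAR1A, -0.0423 and 0.15 for PRKAR1B, -0.0789 and 0.11 for PRKAR2B. At 20 µM against 10 µM they were -0.0765 and 0.0143 for ADCY6, -0.18 and 0.17 for AKAP12, -0.0284 and 0.0725 for CREB1, -0.0182 and 0.21 for CREM, -0.15 and 0.0104 for PRKACA, -0.13 and 0.10 for PRKACB, -0.0327 and 0.10 for PRKAR1A, -0.14 and 0.0511 for PRKAR1B, -0.0619 and 0.062 for PRKAR2A. The leave-outs were run for the members and not for the neighbouring gene lists. Depth limits the statements on ADCY8, ADCY10, PDE1A, PDE4C and PDE6C.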
